A study of Mus musculus with 4 samples.

Results

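The transcripts of 10 germline genes were examined in single nuclei of the E16.5 mouse medial cortex, namely *Dazl*, *Ddx4*, *Mael*, *Asz1*, *Stk31*, *Tdrd1*, *Hormad1*, *Sycp1*, *Sycp3* and *Tex101*. They were selected by symbol from the 56884 genes of the deposited gene tables, and all 10 were found. In the comparison, 2 libraries of the genotype *Sst-Cre/tdTomato/Dnmt1 loxP2* (Dnmt1 KO) were set against 2 of the genotype *Sst-Cre/tdTomato* (control). Both genotypes therefore carried the Cre driver and the tdTomato reporter, and the loxP-flanked *Dnmt1* alleles were present in Dnmt1 KO only. Cre is driven by *Sst*, the somatostatin gene, which is switched on in postmitotic interneurons, so that *Dnmt1* is deleted in this lineage and not in the progenitors or excitatory neurons around it. Each library came from 1 embryonic brain, as the study describes it, and neither tdTomato nor Cre is listed in the gene tables, so recombined nuclei could not be selected directly.

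DNMT1 copies DNA methylation onto the new strand when DNA is replicated. Many genes that are used only by germ cells carry CpG-rich promoters that become methylated in the early embryo and remain so in somatic tissues, including the brain, and loss of DNA methylation in dividing cells is known to release several of them from silencing. The question was whether any of the 10 genes was higher after *Dnmt1* deletion. Here the deletion falls in postmitotic cells, in which DNA is no longer replicated. DNA methylation itself was not measured in these files, so whether it was lost at these promoters is not known.

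Values were counted per gene by the authors' software, and whether reads from introns were counted is not given in the sources used here. All coordinates are on GRCm39 with the GENCODE vM39 annotation. In the 250 bases upstream of the annotated start of the canonical transcript, the members held a median of 14 CpG dinucleotides (8 to 21), against a median of 8 over 21757 protein-coding genes. The median ratio of observed to expected CpG was 0.645 for the members and 0.474 for all. *Stk31* had the most CpG dinucleotides (21) and *Ddx4* the fewest (8). The upstream windows of the 6 members with the most transcripts are shown because CpG dinucleotides, written in capitals, are the sites that DNMT1 methylates. All windows read 5′ to 3′ on the strand of the gene.

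Dazl, chr17:50600665-50600914, minus strand: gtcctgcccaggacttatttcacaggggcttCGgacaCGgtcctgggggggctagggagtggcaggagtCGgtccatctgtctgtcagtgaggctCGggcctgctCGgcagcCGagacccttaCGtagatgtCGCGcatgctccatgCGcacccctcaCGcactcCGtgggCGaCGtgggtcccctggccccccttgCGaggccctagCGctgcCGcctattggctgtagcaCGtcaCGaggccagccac
Ddx4, chr13:112789010-112789259, minus strand: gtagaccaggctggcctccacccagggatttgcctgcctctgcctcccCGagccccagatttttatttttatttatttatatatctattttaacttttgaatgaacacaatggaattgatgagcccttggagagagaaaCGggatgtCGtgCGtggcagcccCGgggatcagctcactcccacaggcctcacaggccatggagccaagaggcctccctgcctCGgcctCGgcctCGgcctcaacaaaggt
Stk31, chr6:49372223-49372472, plus strand: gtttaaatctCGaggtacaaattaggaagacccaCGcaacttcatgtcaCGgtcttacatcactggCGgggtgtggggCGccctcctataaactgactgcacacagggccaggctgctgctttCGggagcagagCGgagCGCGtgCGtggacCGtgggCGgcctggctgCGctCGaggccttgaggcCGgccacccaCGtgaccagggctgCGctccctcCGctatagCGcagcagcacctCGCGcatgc
Tdrd1, chr19:56814391-56814640, plus strand: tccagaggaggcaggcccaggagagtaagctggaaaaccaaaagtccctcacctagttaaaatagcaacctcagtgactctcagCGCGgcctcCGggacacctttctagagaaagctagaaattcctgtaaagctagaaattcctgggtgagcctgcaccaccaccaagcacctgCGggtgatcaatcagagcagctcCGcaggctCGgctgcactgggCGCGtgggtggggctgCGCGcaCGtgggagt
Sycp1, chr3:102843456-102843705, minus strand: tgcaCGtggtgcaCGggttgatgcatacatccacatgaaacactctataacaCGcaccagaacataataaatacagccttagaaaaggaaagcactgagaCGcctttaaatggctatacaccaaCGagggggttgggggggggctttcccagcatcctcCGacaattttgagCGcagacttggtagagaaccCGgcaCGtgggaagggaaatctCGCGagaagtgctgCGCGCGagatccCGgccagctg
Sycp3, chr10:88295181-88295430, plus strand: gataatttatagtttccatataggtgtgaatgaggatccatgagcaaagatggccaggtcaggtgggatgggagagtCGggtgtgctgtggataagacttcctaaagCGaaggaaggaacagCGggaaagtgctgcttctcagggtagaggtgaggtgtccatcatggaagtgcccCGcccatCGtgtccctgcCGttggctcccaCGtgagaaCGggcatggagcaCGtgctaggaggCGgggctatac

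Of the windows shown, those of *Ddx4*, *Tdrd1* and *Sycp3* hold fewer CpG dinucleotides (8, 11 and 10) than those of *Dazl*, *Stk31* and *Sycp1* (19, 21 and 15), though no fewer than the median gene. The hexamer CACGTG, which reads the same on both strands and is the E-box bound by MAX and its partner MGA, occurred in the windows of 6 of the 10 members (*Mael*, *Stk31*, *Tdrd1*, *Hormad1*, *Sycp1* and *Sycp3*), compared with 6.26% of all protein-coding genes. The E2F-type hexamer TCCCGC, searched on both strands, occurred in 3 of the 10 (*Mael*, *Hormad1* and *Sycp3*), compared with 18.4% of all. The hexamers can share an end base at most, and a match describes the letters of the window only. Both hexamers contain a CpG, and the windows of the members hold more of them by the median (14 against 8). The shares were not matched for CpG content.

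**Figure D1:**
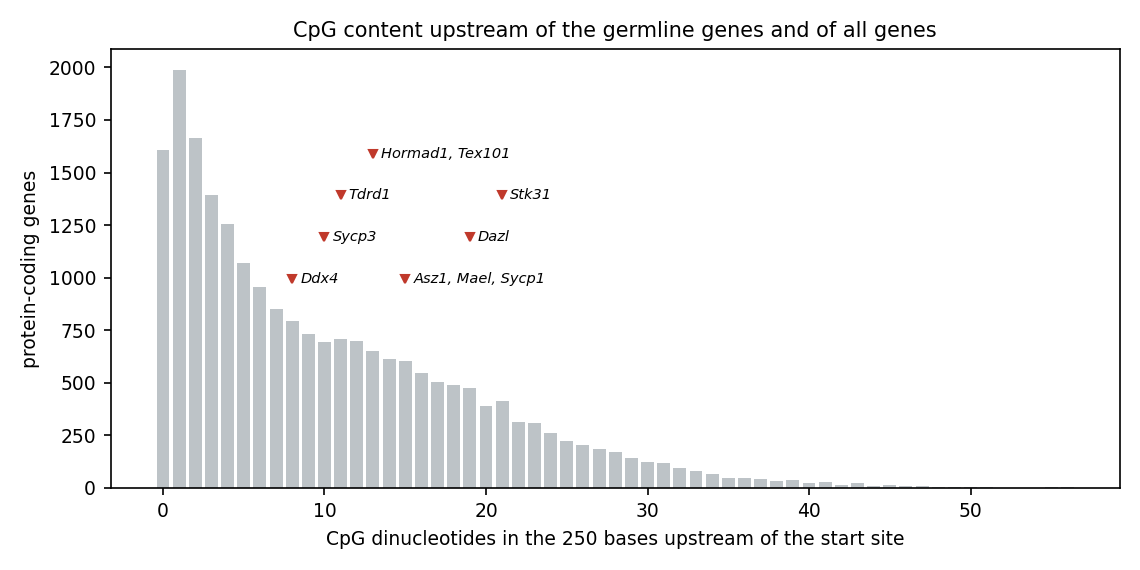
Number of protein-coding genes (grey bars, vertical axis) by the number of CpG dinucleotides in the 250 bases upstream of their start (horizontal axis), with the 10 germline genes as red triangles at their own counts (their height carries no value). The members lie between 8 and 21, at or above the median of 8 of all genes.

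The filters left 5640 and 12064 nuclei in the Dnmt1 KO libraries (replicates 1 and 2, an order kept throughout), compared with 7047 and 4905 in the control libraries, with 75338095 to 172783347 transcripts per library. Control replicate 2 is the only library of batch 2. It had a median of 21140 transcripts per nucleus, against 12274 to 12401 in the other libraries, and 2.55 mapped reads per transcript against 1.66 in each of the others. The barcodes of the retained nuclei were compared between libraries, and 0 were shared in each of the pairs. The X-linked transcript *Xist*, which is high in females, was at 1281 CPM (transcripts per 1000000 transcripts of the same nuclei) in replicate 1 of Dnmt1 KO but at 4.13 CPM in its replicate 2. For control the values were 1157 and 0.0887 CPM, so the replicate number coincided with sex.

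*Dnmt1* was the targeted gene. In nuclei with at least 1 transcript of *Lhx6*, *Gad1* or *Gad2* (marker-positive nuclei, in which interneurons of the *Sst* lineage are contained), *Dnmt1* was at 62.9 and 51.7 CPM in the Dnmt1 KO libraries and at 64.6 and 58.9 CPM in the control libraries. This is a log2 fold change of -0.11 (SE 0.126, edgeR adjusted p 0.836). Counts per gene do not separate transcripts that lack the deleted exons, so these values do not check the labels. *Dnmt1* was also tested between marker-positive and other nuclei, where it was slightly higher in the former (log2 fold change 0.14, SE 0.0367, edgeR adjusted p 0.0464).

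All 10 genes together gave 1780 transcripts in 29656 retained nuclei, and 1398 nuclei held at least 1 of them. *Ddx4* alone, an RNA helicase of germ cells also called VASA, accounted for 45.9% of these transcripts. Transcripts were found in control nuclei for 9 of the 10 genes, the exception being *Tex101*. The name methylation-silenced thus describes genes that were near the lower end of detection here but were not at 0 in the control libraries. No level of a single member exceeded 2.02 CPM in any library over all retained nuclei.

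Of the germ-cell RNA-binding proteins, *Ddx4* reached 2.02 CPM in replicate 1 of Dnmt1 KO and 1.76 CPM in replicate 2 (152 and 304 transcripts), compared with 1.53 and 1.85 CPM in the control libraries (153 and 208 transcripts). *Dazl*, which binds germ-cell mRNAs and promotes their translation, was at 0.226 and 0.266 CPM in the Dnmt1 KO libraries (17 and 46 transcripts) and at 0.219 and 0.231 CPM in the control libraries (22 and 26 transcripts). The groups overlapped for both genes.

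Among the genes of the piRNA pathway and nuage, the perinuclear granule in which transposon transcripts are silenced, *Tdrd1*, a Tudor-domain scaffold of the PIWI proteins, was at 0.597 and 0.967 CPM in the Dnmt1 KO libraries (45 and 167 transcripts). It was at 0.239 and 0.843 CPM in the control libraries (24 and 95 transcripts). In both genotypes the library numbered 2 was above the library numbered 1, so that sex and, for control, batch moved with *Tdrd1*, and their part in it was not tested. *Stk31*, a Tudor-domain protein with a kinase fold, was at 0.465 and 0.336 CPM in the Dnmt1 KO libraries (35 and 58 transcripts) and at 0.399 and 0.248 CPM in the control libraries (40 and 28 transcripts), where the groups again overlapped. *Mael* and *Asz1*, both needed for piRNA production, were close to the limit of detection. *Mael* gave 1 and 6 transcripts in the Dnmt1 KO libraries, compared with 2 and 5 in the control libraries. *Asz1* gave 3 and 0 transcripts in the Dnmt1 KO libraries, compared with 2 and 4 in the control libraries. The count of 0 in Dnmt1 KO replicate 2 allows a level of up to 0.0174 CPM, taken as 3 transcripts over the total.

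Among the genes of meiotic chromosomes, *Sycp3*, a structural protein of the chromosome axis, was at 0.411 and 0.619 CPM in the Dnmt1 KO libraries (31 and 107 transcripts) and at 0.618 and 0.532 CPM in the control libraries (62 and 60 transcripts). *Sycp1*, which forms the transverse filaments between paired chromosomes, gave 5 and 21 transcripts in the Dnmt1 KO libraries (0.0664 and 0.122 CPM), compared with 10 and 17 in the control libraries (0.0997 and 0.151 CPM). *Hormad1*, which marks unsynapsed axes, gave 4 and 9 transcripts in the Dnmt1 KO libraries, compared with 6 and 4 in the control libraries. *Tex101*, a surface protein of germ cells and sperm, gave 1 transcript in all, in Dnmt1 KO replicate 1. In no case were both Dnmt1 KO libraries above both controls, or both below. For comparison, both Dnmt1 KO libraries were above both controls in 19.3% of the 21516 genes tested over all retained nuclei, and below both in 20.7%.

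**Figure D2:**
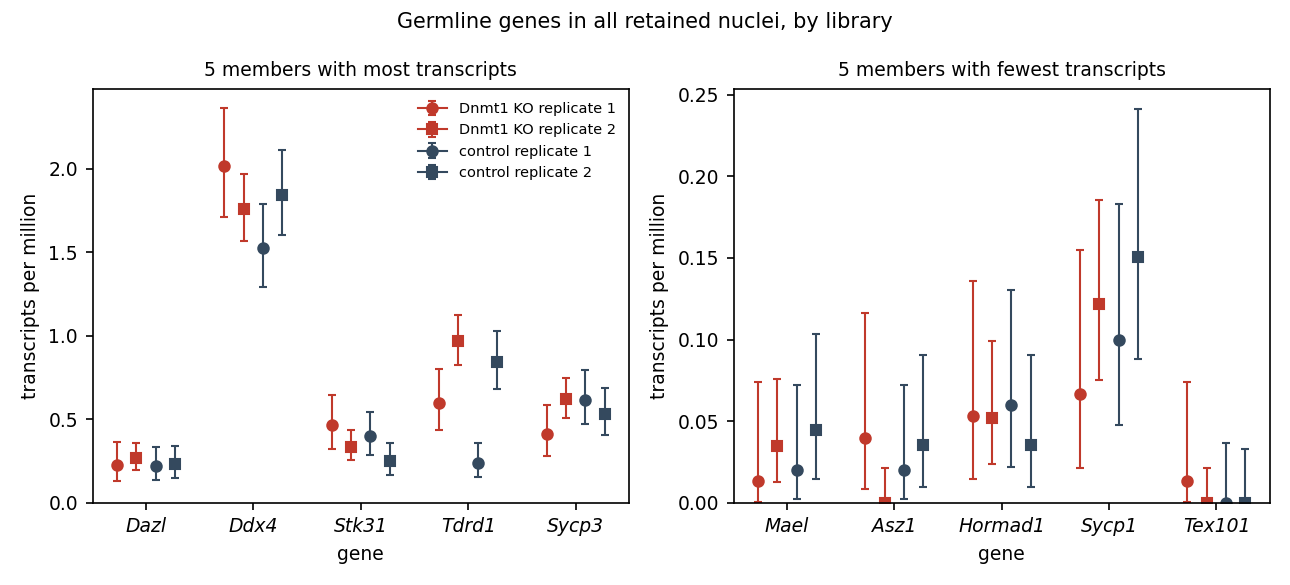
CPM of each germline gene (vertical axis, separate linear scales for the left and right panels) in all retained nuclei, with 1 point per library and exact Poisson 95% intervals that cover counting error only. *Ddx4* lies between 1.53 and 2.02 and the other members below 1, and the points of the genotypes overlap for each gene.

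Levels were compared between genes only per kilobase of gene length. Over all retained nuclei, *Sycp3* had the highest mean level per kilobase of gene span (0.0399 CPM per kb, range over libraries 0.0301 to 0.0453), followed by *Ddx4* (0.0330, range 0.0282 to 0.0373), and the ranges of these neighbours overlapped. *Dazl* (0.0165, range 0.0153 to 0.0186) and *Tdrd1* (0.0151, range 0.00546 to 0.0221) came next and overlapped as well. *Stk31* followed at 0.00489 CPM per kb (range 0.00336 to 0.00628), and its range overlapped that of *Tdrd1*. The other members were below it at 0.00177 CPM per kb for *Hormad1*, 0.000931 for *Sycp1*, 0.000747 for *Mael*, 0.000409 for *Asz1* and 0.000383 for *Tex101*. Per kilobase of exons the order at the top changed, with *Ddx4* at 0.487 CPM per kb and *Sycp3* at 0.400. *Sycp3* (chromosome 10, 88295431 to 88309099, plus strand, 13669 bases) lies entirely within *Chpt1*, a choline phosphotransferase gene on the opposite strand. *Chpt1* was at 12.5 and 13.0 CPM in the Dnmt1 KO libraries, compared with 11.1 and 11.4 CPM in the control libraries. Whether the counting used strand is not given in the sources used here, so reads from *Sycp3* and *Chpt1* may not have been separated, and the level of *Sycp3* is uncertain for that reason. *Stk31*, *Hormad1*, *Mael* and *Tex101* overlap annotated long noncoding RNAs on the opposite strand over part of their span (508 bases for *Mael* to 17116 for *Hormad1*). These RNAs are not among the genes counted, so how far they affect the levels is not known.

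The genotypes were tested with edgeR over all genes (quasi-likelihood test on counts summed per library, Benjamini-Hochberg adjustment). Over all retained nuclei, 0 of the 6 members that passed the filter on low counts were called and 0 reached an unadjusted p under 0.05. The number called by DESeq2 was 0 as well. The background was 0% of 21516 genes called by edgeR, with 1612 genes (7.49%) at an unadjusted p under 0.05, and 205 genes called by DESeq2. The log2 fold changes of Dnmt1 KO over control were 0.52 for *Tdrd1* (95% interval -1.19 to 2.22), 0.28 for *Stk31* (-0.71 to 1.26), 0.14 for *Ddx4* (-0.44 to 0.72) and 0.12 for *Dazl* (-0.71 to 0.96). Those of *Sycp3* and *Sycp1* were -0.15 (-1.01 to 0.70) and -0.36 (-1.63 to 0.92). Their edgeR adjusted p ranged from 0.830 to 0.929. The median over these 6 members was 0.13, beside -0.012 over all genes tested. Leaving out each library in turn, this median ranged from -0.037 (without control replicate 1) to 0.088 (without control replicate 2). The interval was narrowest for *Ddx4*. The other intervals reached past a doubling in at least 1 direction for *Tdrd1*, *Stk31*, *Sycp3* and *Sycp1*.

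The 4 members that did not pass the filter, *Mael*, *Asz1*, *Hormad1* and *Tex101*, were compared by pooled counts. The ratio of Dnmt1 KO to control was 0.859 for *Mael* (exact 95% interval 0.257 to 2.87, from 7 and 7 transcripts), 0.429 for *Asz1* (0.0695 to 2.01, from 3 and 6) and 1.12 for *Hormad1* (0.452 to 2.84, from 13 and 10). These intervals cover counting error only, and each included 1.

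*Tdrd1* was the member for which single libraries mattered most. Without control replicate 2, which leaves the libraries of batch 1 with 1 control, its log2 fold change over all retained nuclei was 1.72 (SE 0.548, edgeR unadjusted p 0.0377, adjusted p 1.000). Without control replicate 1 it was -0.13 (SE 0.467, edgeR adjusted p 0.960). With batch as a covariate it was 1.72 (SE 0.546). The batch term fits control replicate 2 alone, so this is nearly the same comparison as leaving that library out and not a further check. Batch 2 holds control nuclei only, so the difference between control libraries cannot be told apart from batch, and sex differs between them as well.

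The inhibitory-marker-positive nuclei were the population of main interest, since *Dnmt1* is deleted within it. They numbered 578 and 2403 in the Dnmt1 KO libraries, compared with 1874 and 804 in the control libraries, which is 10.2% to 26.6% of a library. A list of 11 interneuron and inhibitory markers reached a summed 11183 to 13767 CPM in them and 64.1 to 136 CPM in the other nuclei, with 0 of the 11 at 0 in any library of either population. Excitatory markers (6 genes) were at 791 to 1760 CPM in the marker-positive nuclei and 1431 to 2720 CPM in the other nuclei, and both marker-positive sums of Dnmt1 KO (791 and 1039 CPM) were below those of control (1396 and 1760 CPM). The other nuclei showed the same order, since the Dnmt1 KO libraries reached 1431 and 1749 CPM there, compared with 2200 and 2720 CPM for the control libraries. Progenitor markers (7 genes) summed to 371 and 245 CPM in the marker-positive nuclei of Dnmt1 KO, against 234 and 211 CPM for control. Outside the gate their range was 316 to 386 CPM. Each library had less inside the gate, though only slightly in Dnmt1 KO replicate 1 (371 against 386 CPM). The cycling markers *Mki67* and *Top2a* together ranged from 134 to 235 CPM in marker-positive nuclei and from 143 to 253 CPM outside them. Only control replicate 1 had more of these inside the gate (235 against 191 CPM). The part of the excitatory, progenitor and cycling markers in the values below was not tested. *Sst* and *Gad2* transcripts together, which mark the targeted lineage, were found in only 16, 136, 40 and 27 nuclei, so most marker-positive nuclei need not have been exposed to Cre.

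In these nuclei the 10 genes together gave 36 and 126 transcripts in the Dnmt1 KO libraries, compared with 76 and 56 in the control libraries. This is a summed level of 4.54 CPM (exact Poisson 95% interval 3.18 to 6.29) and 3.67 CPM (3.06 to 4.37) in the Dnmt1 KO libraries, and of 2.91 CPM (2.30 to 3.65) and 3.23 CPM (2.44 to 4.19) in the control libraries. The genotype means were 4.11 ± 0.616 and 3.07 ± 0.223 CPM (SD, n = 2), and the groups did not overlap. The intervals of single libraries did overlap. With no upper limit on transcripts the levels were 4.52 and 3.57 CPM against 2.71 and 4.06 CPM, so the groups overlapped, with means of 4.05 and 3.38 CPM. This limit took out 1.64% and 4.80% of the transcripts of the Dnmt1 KO libraries but 22.0% and 31.7% of those of the control libraries. With the called doublets left out, the means were 3.24 CPM in the Dnmt1 KO libraries and 3.29 CPM in the control libraries and the groups overlapped. Without them, 22 and 83 transcripts of the members remained in the Dnmt1 KO libraries, compared with 67 and 47 in the control libraries. The level fell to 3.30 and 3.19 CPM in the Dnmt1 KO libraries and rose to 3.15 and 3.43 CPM in the control libraries. Of the marker-positive nuclei, 8.13% and 11.7% were called doublets in the Dnmt1 KO libraries, compared with 7.84% and 12.7% in the control libraries. The reason for the unequal loss was not tested. Over all retained nuclei the share was 3.01% to 7.16%.

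By gene, *Ddx4* was at 1.64 and 1.25 CPM in the marker-positive nuclei of Dnmt1 KO (13 and 43 transcripts) and at 1.30 and 1.33 CPM in the control libraries (34 and 23 transcripts). *Stk31* was at 0.631 and 0.554 CPM in the Dnmt1 KO libraries (5 and 19 transcripts), compared with 0.383 and 0.404 CPM in the control libraries (10 and 7 transcripts). *Sycp3* was at 1.01 and 0.583 CPM in the Dnmt1 KO libraries (8 and 20 transcripts), compared with 0.575 and 0.346 CPM in the control libraries (15 and 6 transcripts). For *Stk31* and *Sycp3* both Dnmt1 KO libraries were above both controls, by 0.583 against 0.575 CPM for the closest pair of *Sycp3*. *Tdrd1* was at 0.631 and 0.758 CPM in the Dnmt1 KO libraries (5 and 26 transcripts), compared with 0.345 and 0.692 CPM in the control libraries (9 and 12 transcripts), and its groups overlapped.

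The other members were sparse. *Dazl* gave 3 and 11 transcripts in the Dnmt1 KO libraries, compared with 3 and 4 in the control libraries, which is a ratio of 2.06 (exact 95% interval 0.777 to 6.02). Its CPM was higher in both Dnmt1 KO libraries than in both controls, beside 18.5% of genes tested in that direction. *Sycp1* gave 1 and 4 transcripts in the Dnmt1 KO libraries against 0 and 3. *Mael*, *Hormad1* and *Asz1* gave at most 3 transcripts in any library, and *Tex101* gave 0 transcripts, which allows a level of up to 0.0874 to 0.379 CPM, depending on the library.

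Of the 10 members, 4 passed the filter in the marker-positive nuclei, and edgeR called 0 of them. The number was 0 also at an unadjusted p under 0.05 and with DESeq2. The background was 0% of 16773 genes, with 1411 genes (8.41%) at an unadjusted p under 0.05 and 154 genes called by DESeq2. The log2 fold changes were 0.62 for *Sycp3* (95% interval -0.69 to 1.94), 0.56 for *Stk31* (-0.53 to 1.66), 0.52 for *Tdrd1* (-0.79 to 1.82) and 0.10 for *Ddx4* (-0.76 to 0.96), with edgeR adjusted p between 0.736 and 0.989. Their median was 0.54 beside -0.0074 over all genes tested. Leaving out each library in turn, this median ranged from 0.29 to 0.51, and with doublets left out it was 0.043 over 2 members. With the limits applied to mapped reads only *Ddx4* was tested. The count of 2 tested members with both Dnmt1 KO libraries above both controls stands beside 18.5% of all genes tested. *Dazl*, which did not pass the filter, had the same order. The direction of *Ddx4* was not stable. Its log2 fold change was -0.42 with doublets left out and -0.31 when the filter of the study was applied to mapped reads.

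**Figure D3:**
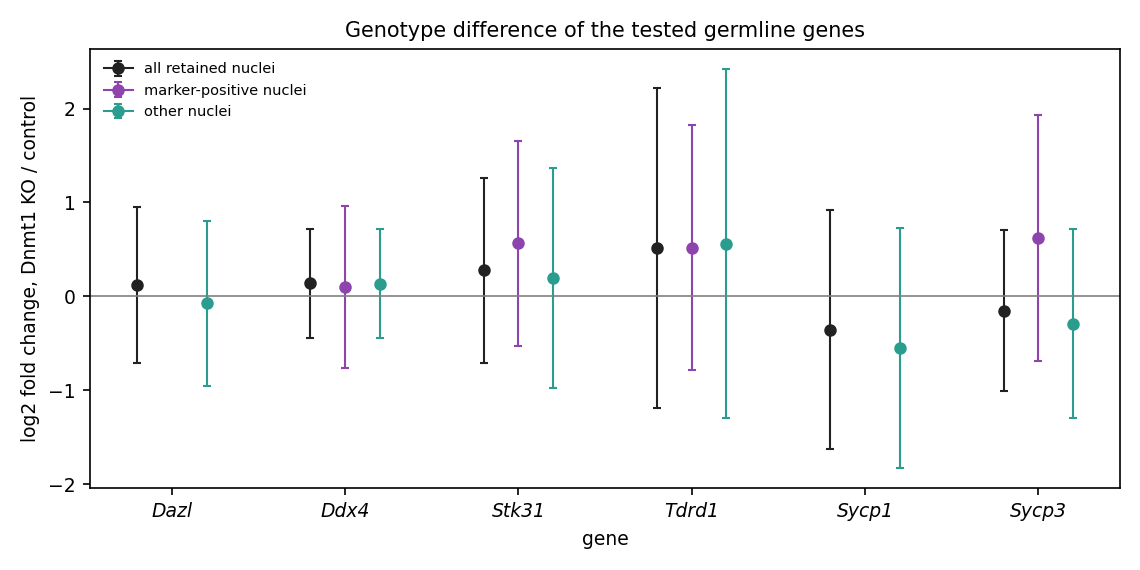
Log2 fold change of Dnmt1 KO over control (vertical axis, edgeR) for each member that passed the filter, with 95% intervals, in all retained nuclei (black), marker-positive nuclei (purple) and other nuclei (green). Each interval includes 0, and the widest are those of *Tdrd1* in other and in all retained nuclei.

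A narrower gate gave a larger difference. Nuclei with at least 1 transcript of *Lhx6*, the transcription factor of interneurons from the medial ganglionic eminence, numbered 294 and 1154 in the Dnmt1 KO libraries, compared with 709 and 481 in the control libraries. The summed level of the 10 genes in them was 4.58 CPM (19 transcripts, 2.76 to 7.15) and 3.87 CPM (65 transcripts, 2.99 to 4.94) in the Dnmt1 KO libraries, and 1.93 CPM (20 transcripts, 1.18 to 2.98) and 2.56 CPM (27 transcripts, 1.69 to 3.72) in the control libraries. *Ddx4* contributed most, with 2.17 and 1.55 CPM in the Dnmt1 KO libraries (9 and 26 transcripts) against 0.771 and 1.14 CPM in the control libraries (8 and 12 transcripts). This gave a log2 fold change of 0.93 (SE 0.460, edgeR adjusted p 0.866). For *Dazl* there were 1 and 6 transcripts in the Dnmt1 KO libraries against 1 and 0, a ratio of 7.01 with an exact 95% interval of 0.900 to 316. Both Dnmt1 KO libraries were above both controls for *Ddx4* and *Dazl*. Of the 14520 genes tested in this gate, 12.0% had both Dnmt1 KO libraries above both controls and 25.1% had both below, and edgeR called 0%. *Ddx4* is among these genes, whereas *Dazl* did not pass the filter. With doublets left out the summed levels were 2.83 and 3.06 CPM in the Dnmt1 KO libraries against 1.68 and 2.35 CPM in the control libraries, a mean difference of 0.930 CPM in place of 1.99. With the study's limits applied to mapped reads the mean difference was 1.54 CPM. Both of these alternatives were chosen after seeing the data. The excitatory markers were lower in the *Lhx6*-positive nuclei of Dnmt1 KO (645 and 822 CPM) than in those of control (943 and 1382 CPM), as were the progenitor markers (116 and 154 against 201 and 165 CPM), and their part in the difference was not tested.

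In the nuclei with transcripts of both *Sst* and *Gad2*, which are closest to the targeted cells, the 219 nuclei held 16 transcripts of the members in all. *Ddx4* gave 0 and 4 in the Dnmt1 KO libraries, compared with 4 and 0 in the control libraries, and *Dazl* gave 1 and 1 against 1 and 0. The summed level was 4.23 and 3.72 CPM in the Dnmt1 KO libraries, compared with 7.27 and 1.44 CPM in the control libraries, so the groups overlapped. *Asz1*, *Sycp1*, *Hormad1* and *Tex101* were not detected there. The pooled ratio for *Ddx4* was 0.636 with an exact 95% interval of 0.118 to 3.41. For a gene with 0 transcripts in these nuclei, the count allows a level of up to 12.7 and 1.40 CPM in Dnmt1 KO replicates 1 and 2, so an increase below that was not detectable at this depth.

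**Figure D4:**
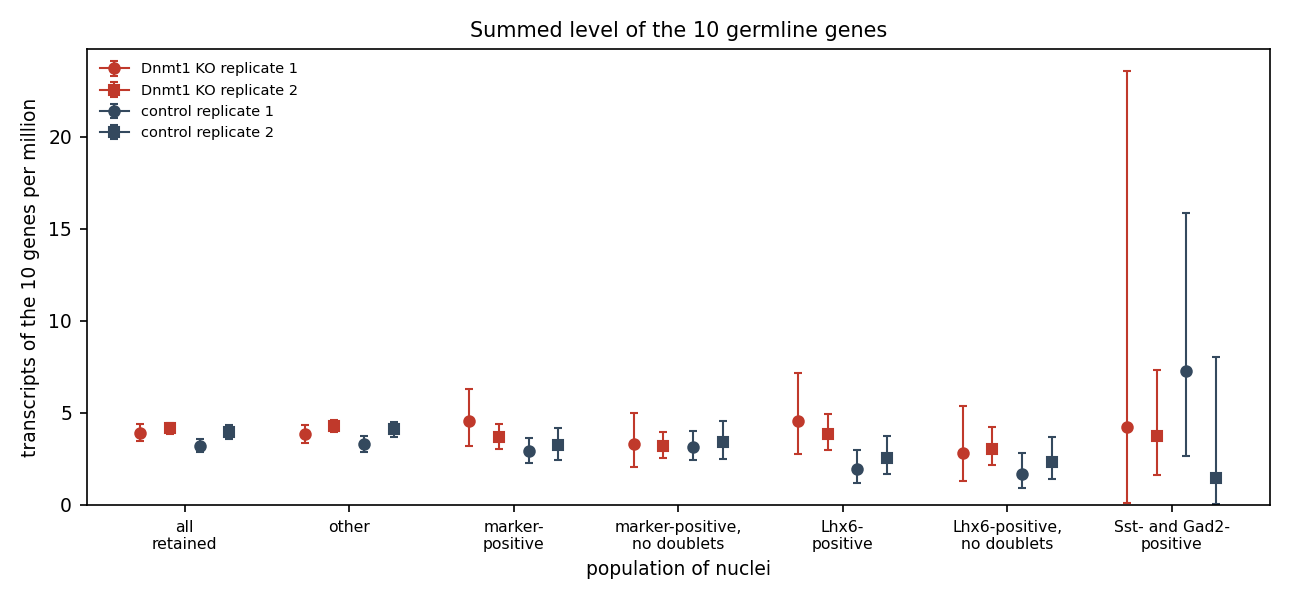
Summed level of the 10 germline genes in CPM (vertical axis) for each library in 7 populations of nuclei (horizontal axis), with exact Poisson 95% intervals. The Dnmt1 KO libraries lie above the controls in the marker-positive and *Lhx6*-positive nuclei, the marker-positive means are 3.24 and 3.29 CPM once doublets are left out, and the intervals of the *Sst*- and *Gad2*-positive nuclei span most of the axis.

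The other nuclei, which had no transcript of *Lhx6*, *Gad1* or *Gad2*, served as the background measured in the same way. The summed level was 3.83 and 4.28 CPM in the Dnmt1 KO libraries, compared with 3.30 and 4.10 CPM in the control libraries. *Ddx4* was at 2.06 and 1.88 CPM in the Dnmt1 KO libraries, compared with 1.60 and 1.94 CPM in the control libraries. Of the members, 6 passed the filter and edgeR called 0 of them, with 0 at an unadjusted p under 0.05 and 0 called by DESeq2, beside 0% of 20759 genes called by edgeR (1454 genes, or 7%, at an unadjusted p under 0.05) and 143 genes called by DESeq2. The log2 fold changes ran from -0.55 (*Sycp1*, 95% interval -1.83 to 0.73) to 0.56 (*Tdrd1*, -1.30 to 2.42). *Sycp1* was lower in both Dnmt1 KO libraries (0.0593 and 0.123 CPM) than in both controls (0.135 and 0.147 CPM), beside 20.3% of genes in that direction. *Hormad1*, which did not pass the filter, was higher in both (0.0593 and 0.0578 CPM against 0.0404 and 0.0419 CPM), on 4 and 8 against 3 and 4 transcripts, beside 19.8% of genes tested in that direction.

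Among these other nuclei, those with a transcript of *Mki67* or *Top2a* (cycling, 6234 nuclei) had a summed level of 3.61 and 3.36 CPM in the Dnmt1 KO libraries, compared with 2.95 and 3.36 CPM in the control libraries. Nuclei without those transcripts but with *Neurod2* or *Neurod6* (excitatory neurons, 13955 nuclei) had 3.86 and 4.69 CPM in the Dnmt1 KO libraries, compared with 3.35 and 4.38 CPM in the control libraries. The remaining 3808 nuclei had 4.12 and 4.11 CPM in the Dnmt1 KO libraries, compared with 4.52 and 3.36 CPM in the control libraries. Transcripts of the members were therefore also found in cycling, excitatory and remaining nuclei, outside the *Sst* lineage. The groups overlapped in the excitatory and remaining nuclei, whereas in the cycling nuclei both Dnmt1 KO libraries were above both controls, by less than the rounding for the closest pair. In barcodes with at least 400 but fewer than 1500 transcripts, which were left out of the comparisons, the summed level ranged from 5.87 CPM in control replicate 2 to 11.3 CPM in Dnmt1 KO replicate 2 (81 transcripts in all). The retained nuclei held 3.20 to 4.16 CPM, and in each library the shallow barcodes were above them. For Dnmt1 KO replicate 2 the exact Poisson 95% intervals were apart (6.79 to 17.6 against 3.86 to 4.47 CPM). They were also apart for control replicate 1 (4.65 to 10.1 against 2.86 to 3.57 CPM), whereas those of the other libraries overlapped. All of these intervals take transcripts as independent, which makes those of the retained nuclei too narrow. Barcodes above the upper limit held 2.68 to 4.44 CPM. How much of the signal in nuclei is free RNA was not tested.

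Whether the members differed between the marker-positive and other nuclei of the same library was tested with library as a block. edgeR called 0 of the 5 members tested, beside 19.4% of 18948 genes (8.87% higher and 10.5% lower in the marker-positive nuclei). At an unadjusted p under 0.05 it was 1 member, *Ddx4*, beside 32.4% of genes. *Ddx4* was at 1.64 against 2.06 CPM, 1.25 against 1.88, 1.30 against 1.60 and 1.33 against 1.94 CPM in marker-positive and other nuclei (both Dnmt1 KO libraries first, then both controls), lower in 4 of 4 libraries. Its log2 fold change was -0.43 (SE 0.140, edgeR unadjusted p 0.0199, adjusted p 0.0821), which did not pass the threshold. *Stk31* had a log2 fold change of 0.61 (SE 0.279, edgeR adjusted p 0.192) and was higher in the marker-positive nuclei in 3 of 4 libraries. Those of *Sycp3*, *Dazl* and *Tdrd1* were 0.056, 0.045 and -0.096.

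**Figure D5:**
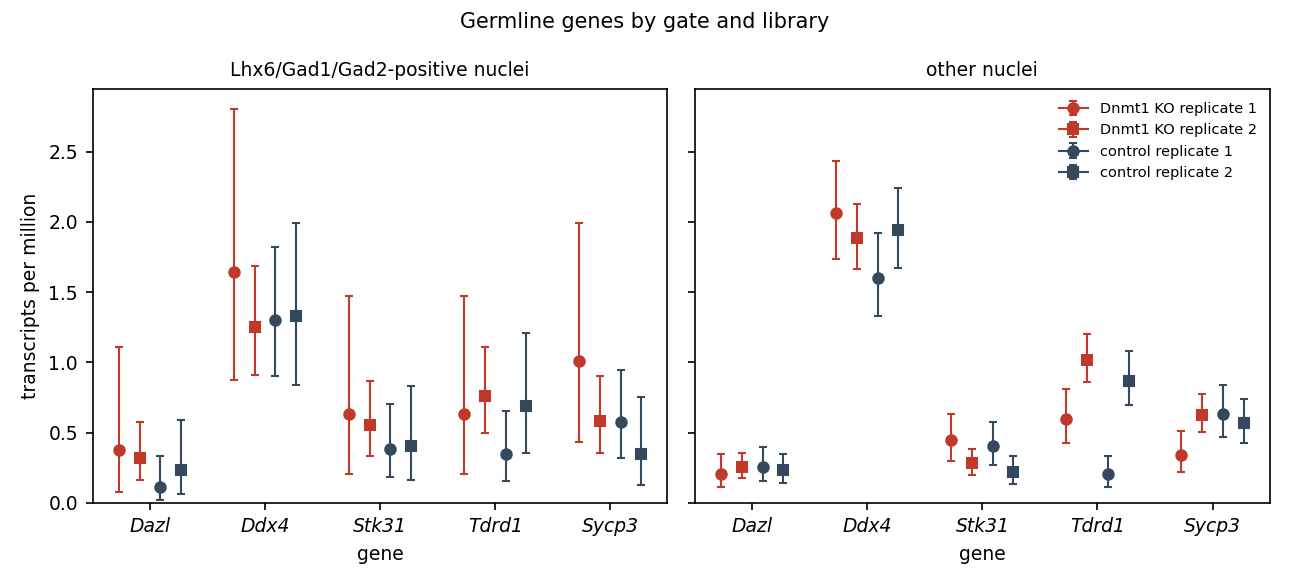
CPM (vertical axis) of the 5 members with the most transcripts in marker-positive nuclei (left) and other nuclei (right), with 1 point per library and exact Poisson 95% intervals. *Ddx4* is lower on the left in each of the 4 libraries, and in the left panel the Dnmt1 KO points of *Stk31* and *Sycp3* lie above the control points with intervals that overlap.

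The difference in genotype effect between the gates was tested as an interaction. It was 1.08 for *Dazl* on the log2 scale (SE 0.752), 0.84 for *Sycp3* (SE 0.691), 0.51 for *Stk31* (SE 0.598), -0.048 for *Ddx4* (SE 0.318) and -0.35 for *Tdrd1* (SE 0.561). Each had an edgeR adjusted p of 1.000 and an unadjusted p above 0.05. Of the 20230 genes tested, 0% were called, and 508 (2.51%) reached an unadjusted p under 0.05. A genotype effect particular to the marker-positive nuclei was not shown for any member.

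The share of nuclei with at least 1 transcript of a member was 4.13% and 4.72% in the Dnmt1 KO libraries (233 of 5640 and 569 of 12064 nuclei), compared with 3.77% and 6.73% in the control libraries (266 of 7047 and 330 of 4905). Control replicate 2, with the most transcripts per nucleus by the median given above, had the highest share. When each nucleus was thinned to 1500 transcripts, the shares were 0.656% and 0.539% in the Dnmt1 KO libraries, compared with 0.511% and 0.387% in the control libraries, at 19 to 65 nuclei per library, and control replicate 2 was then the lowest. The thinned shares rest on single transcripts and are read as a description only. In the marker-positive nuclei the shares were 4.67% and 4.20% in the Dnmt1 KO libraries, compared with 3.31% and 5.10% in the control libraries, and overlapped.

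How the transcripts were spread over nuclei differed between members. *Stk31* had 161 transcripts in 117 nuclei, of which 23.9% held 2 or more. For *Ddx4* it was 817 transcripts in 618 nuclei, 23.3% of them with 2 or more and 12 with more than 3. *Tdrd1* had 331 transcripts in 262 nuclei and 21.0% with 2 or more, including the highest count of a member in a single nucleus (6 transcripts, in control replicate 2). *Sycp3* had a similar total, 260 transcripts in 244 nuclei, but only 5.74% held 2 or more. *Dazl* had 111 transcripts in 104 nuclei and 6.73% with 2 or more. The members were rarely found together. Of the 233 nuclei with a member in Dnmt1 KO replicate 1, 6 held transcripts of 2 members, and none held 3. In Dnmt1 KO replicate 2 it was 19 with 2 and 2 with 3, and in control replicates 1 and 2 it was 7 and 9 with 2. No nucleus of any library held more than 3 members, so a nucleus with a broad germline profile was not seen in either genotype. At the low levels given above, few nuclei could show several members whether or not such a profile was present, so these counts cannot decide it. How often members would share a nucleus by chance was not tested.

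Further germline genes were examined in lists of the same kind. Of 56 further genes, 12 belong to the piRNA pathway and nuage, 25 to meiosis and 19 to germ-cell regulators and others. Over all retained nuclei 8, 19 and 9 of them passed the filter, and edgeR called 0 by genotype in each list, beside 0% of all genes. Their median log2 fold changes were 0.11, 0.20 and -0.062, beside -0.012 over all genes. In the marker-positive nuclei 5, 16 and 7 passed, 0 were called, and the medians were 0.26, 0.16 and 0.27. At an unadjusted p under 0.05 it was 0, 3 and 1 of them, beside 8.41% of all genes. The meiosis genes among these were *Sycp2*, a chromosome axis protein, *Stag3*, a meiotic cohesin subunit, and *Hfm1*, a meiotic helicase. In the marker-positive nuclei *Sycp2* was at 5.18 and 5.48 CPM in the Dnmt1 KO libraries, compared with 3.49 and 3.29 CPM in the control libraries (log2 fold change 0.66, SE 0.202, edgeR unadjusted p 0.0212, adjusted p 0.552). *Stag3* was at 7.07 and 8.37 CPM, compared with 5.79 and 4.90 CPM (log2 fold change 0.55, SE 0.195, edgeR unadjusted p 0.0369, adjusted p 0.571). *Hfm1* was at 61.9 and 55.3 CPM, compared with 50.5 and 46.4 CPM (log2 fold change 0.28, SE 0.106, edgeR unadjusted p 0.0453, adjusted p 0.589). The groups did not overlap for these 3 genes, with both Dnmt1 KO libraries above both controls as in 18.5% of all genes, and *Sycp2* and *Stag3* were chosen after their values were seen. The germ-cell regulator was *Nanos3*, described below, which went the other way. It was at 21.7 and 19.0 CPM in the marker-positive nuclei of Dnmt1 KO, compared with 25.4 and 26.7 CPM in those of control (log2 fold change -0.36, SE 0.126, edgeR unadjusted p 0.0355, adjusted p 0.571), with both Dnmt1 KO libraries below both controls as in 22.4% of all genes. The interaction of *Sycp2* had an edgeR unadjusted p of 0.0458 and an adjusted p of 1.000. The 14 silencers of germline promoters all passed, 0 were called by genotype in either population, and their medians were -0.0022 and -0.044. *Rnf2*, the ubiquitin ligase of Polycomb complexes, was at 35.4 and 34.1 CPM in the Dnmt1 KO libraries over all retained nuclei, compared with 43.0 and 37.5 CPM in the control libraries (log2 fold change -0.23, SE 0.103, edgeR unadjusted p 0.0770, adjusted p 0.653). It was the 1 silencer at an unadjusted p under 0.05 in the marker-positive nuclei (log2 fold change -0.29, SE 0.108, edgeR adjusted p 0.585). *E2f6*, a repressor of germline promoters, was at 9.32 and 8.33 CPM, compared with 10.7 and 9.71 CPM (log2 fold change -0.23, SE 0.126, edgeR adjusted p 0.666).

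The further germline genes selected for their mean CPM, which is not corrected for gene length, were *Hfm1* at 46.3 CPM, *Tdrkh*, a Tudor-domain partner of PIWI proteins, at 41.7 CPM, and *Nanos3*, a translational regulator of primordial germ cells, at 19.5 CPM. Over all retained nuclei, *Nanos3* was at 15.8 and 17.2 CPM in the Dnmt1 KO libraries, compared with 22.8 and 22.2 CPM in the control libraries (log2 fold change -0.46, SE 0.109, edgeR unadjusted p 0.00882, adjusted p 0.649). *Prdm9*, which places meiotic recombination sites, was at 9.01 and 7.99 CPM in the Dnmt1 KO libraries, compared with 6.07 and 6.24 CPM in the control libraries (log2 fold change 0.45, SE 0.133, edgeR unadjusted p 0.0214, adjusted p 0.649). *Rad21l*, a meiotic cohesin subunit, had 23 and 31 transcripts in the Dnmt1 KO libraries, compared with 13 and 12 in the control libraries (log2 fold change 0.97, SE 0.426, edgeR adjusted p 0.649). *Spo11*, the enzyme that cuts DNA to start recombination, had 6 and 87 transcripts in the Dnmt1 KO libraries, compared with 5 and 12 in the control libraries, and most of them came from 1 library. This gave a log2 fold change of 1.95 (SE 0.950, edgeR adjusted p 0.656). Of the genes named here, *Hfm1*, *Tdrkh*, *Prdm9* and *Spo11* overlap other annotated genes on the opposite strand and *Nanos3* holds microRNA genes on its own strand, so their counts are uncertain.

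Between marker-positive and other nuclei, 19.4% of all genes were called, compared with 7 of the 31 further germline genes tested (22.6%, near that background) and 1 of the 14 silencers (7.14%). *Mei4* (log2 fold change 1.33, SE 0.126), *Nanos3* (0.32, SE 0.0695) and *Hfm1* (0.27, SE 0.0675) were higher in the marker-positive nuclei. *Rec8* (-0.84, SE 0.108), *Msh5* (-0.55, SE 0.0976), *Syce2* (-0.50, SE 0.0991) and *Tex15* (-0.47, SE 0.129, edgeR adjusted p 0.0497) were lower. *Syce2* shares 8259 of its 16114 bases with *Gcdh* on the opposite strand, which had a mean of 5.25 CPM, and *Msh5* and *Tex15* overlap other genes on that strand, so these levels are uncertain as well. The silencer that passed was *Dnmt1*, given above, and the silencers with the highest mean CPM, *Ehmt1*, *Mga* and *Kdm5c*, had means of 397, 168 and 76.5 CPM over all retained nuclei and log2 fold changes by genotype of 0.0084, 0.10 and 0.090.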

How the data were processed

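Single nuclei of 4 libraries were barcoded with the Parse Evercode WT kit, in which fixed nuclei collect barcodes in successive rounds of wells. The authors processed the reads with Trailmaker (version not given in the sources used here) to GRCm39, the mm39 build of the submitters' processing notes, and deposited raw counts, in which each unique molecular identifier stands for 1 transcript of a gene in a barcode, unfiltered and not normalized. The notes also name R 4.4.1 and Seurat 5.0.1.9001. The annotation release, and whether introns and strand were used in counting, are not given in the sources used here.

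A barcode was retained when its total lay between 1500 and 60000 transcripts and its mitochondrial share did not exceed 10%, which is the study's filter applied to transcripts (the study states reads), and the mitochondrial limit removed 0. Doublets were called with scrublet in scanpy 1.11.5 (Python 3.11.15) at an expected rate of 5%, and kept, with their removal as an alternative. Nuclei are not replicates, so counts were summed per library over all retained nuclei, marker-positive nuclei and other nuclei. Depth was 75338095 to 172783347 retained transcripts per library. The sums were tested with edgeR 4.0.16 (R 4.3.3, TMM, filterByExpr, quasi-likelihood) and adjusted over all genes at a threshold of 0.05. The standard error is the absolute log2 fold change divided by the square root of F. For some genes with a small change the p of the test was larger than this error and its interval imply. Among these were *Ddx4* in marker-positive nuclei and *Dazl* in other nuclei. DESeq2 1.42.0 was an alternative, as were other filters, gates and scaling, a batch term and leaving out each library. The code was tested on simulated counts. CPM is transcripts per 1000000, and exact Poisson and binomial intervals cover counting error only. The Poisson and pooled-ratio intervals take transcripts as independent. Transcripts of some members fell together in nuclei (23.3% of the nuclei with *Ddx4* held 2 or more), so these intervals are too narrow. The level allowed by a count of 0 was taken as 3 transcripts over the total, which is not the end of an exact interval. No p was computed for scores over members. With 2 libraries a group, p-values by genotype measure the spread between single brains, which includes sex and, for control, batch. With library as a block, p-values between gates and of the interaction measure how the difference between gates varied among libraries.

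Members and lists were chosen with earlier results of these data known. Named from further lists were genes past the threshold in any test, the 3 of highest mean CPM (taken for germline genes and silencers separately) and the 3 higher and 3 lower with the smallest unadjusted p over all retained nuclei.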

Additional observations from a re-analysis of the deposited data

How the results depend on the processing

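The count of members called was 0 in each of the 5 comparisons and under every alternative in which a member was tested. By genotype in marker-positive nuclei, no member passed the filter with the gate on *Sst* and *Gad2*. The same held for *Lhx6* alone with doublets left out or with mapped reads, so a count of 0 was fixed in advance there. Only 1 member was tested with the gate on *Lhx6* alone, with at least 2 transcripts of the gate markers, or with mapped reads. The number of all genes called moved. Over all retained nuclei it was 0 with edgeR, 205 with DESeq2, 70 without the low-count filter, and 188 without Dnmt1 KO replicate 1 (1 without Dnmt1 KO replicate 2, 0 without either control). In marker-positive nuclei it was 0, 154 with DESeq2, 952 without the filter and 52 without Dnmt1 KO replicate 1. In other nuclei it was 0, 143 with DESeq2, 228 without Dnmt1 KO replicate 1 and 54 without Dnmt1 KO replicate 2. Between marker-positive and other nuclei it was 3672, 2256 with no upper limit on transcripts, 2270 with the gate on *Sst* and *Gad2*, 2316 without Dnmt1 KO replicate 2 and 2128 without control replicate 2. For the interaction it was 0, 277 without the filter and 42 with the gate on *Sst* and *Gad2*. Same-numbered libraries did not deviate together (correlation -0.0577 over all retained nuclei, 0.0187 in marker-positive nuclei and -0.0598 in other nuclei), so no pairing was taken from the numbers, which coincided with sex. With the replicate number as a block, 0 members and 0 genes were called in each of these populations, as without it.

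The summed level in marker-positive nuclei differed between Dnmt1 KO and control by 1.04 CPM. It was 0.846 CPM with the limits applied to mapped reads, 1.39 CPM in nuclei with at least 2 transcripts of the gate markers and 0.904 CPM without *Ddx4*. It was 0.664 CPM with no upper limit on transcripts, where the groups overlapped, and -0.0468 CPM with doublets left out. The difference was 1.99 CPM in *Lhx6*-positive nuclei and -0.384 CPM in *Sst*- and *Gad2*-positive nuclei. In *Lhx6*-positive nuclei with the limits applied to mapped reads it was 1.54 CPM, an alternative chosen after seeing the data. The difference over all retained nuclei was 0.447 CPM (means of 4.03 and 3.58 CPM, with overlapping groups), 0.287 CPM with doublets left out and 0.243 CPM without *Ddx4*. The share of nuclei with a member differed by -0.827 percentage points, by -1.97 with no upper limit and by 0.782 with the limits applied to mapped reads. Log2 fold changes that changed sign over all retained nuclei were those of *Stk31* with batch as a covariate (-0.013), *Sycp1* with no upper limit (0.060) and *Sycp3* with mapped reads (0.068). In marker-positive nuclei *Ddx4* changed sign with doublets left out (-0.42), with mapped reads (-0.31) and with no upper limit (-0.34). The causes were not tested.

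Leaving out each library in turn, the log2 fold changes over all retained nuclei ranged from -0.015 to 0.24 for *Dazl*, -0.0072 to 0.31 for *Ddx4*, -0.0045 to 0.63 for *Stk31*, -0.13 to 1.72 for *Tdrd1* and -0.50 to 0.10 for *Sycp3*, and that of *Ddx4* in marker-positive nuclei from -0.061 to 0.33. In marker-positive nuclei they ranged from 0.50 to 0.68 for *Stk31*, 0.031 to 1.06 for *Tdrd1* and 0.31 to 1.10 for *Sycp3*. For *Sycp1* over all retained nuclei the range was -0.93 to -0.014. Each of these kept its sign, but those of *Tdrd1*, *Sycp3* and *Sycp1* did not keep their size. The difference in summed level ranged from 0.0645 (without control replicate 1) to 0.829 CPM (without control replicate 2) over all retained nuclei and from 0.601 (without Dnmt1 KO replicate 1) to 1.47 CPM (without Dnmt1 KO replicate 2) in marker-positive nuclei. That in the share of nuclei ranged from -2.30 (without control replicate 1) to 0.649 percentage points (without control replicate 2). Where a single library remained in a group, it was assumed to vary like the others. Limits were the 2 libraries a group, a batch with 1 control library only, and depth. In marker-positive nuclei 6 of the 10 members did not pass the filter. No member could be tested by genotype within *Sst*- and *Gad2*-positive nuclei, or within *Lhx6*-positive nuclei with doublets left out or with mapped reads.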
